A study of Homo sapiens with 6 samples.

Results

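A set of 5422 regions carried a peak in exactly 2 of 4 MYT1L CUT&RUN libraries and no peak of either IgG library. All lay over 1000 bp from both ends of every protein-coding gene. They were 11.1% of the 49028 regions formed by merging the MYT1L peaks on chromosomes 1 to 22, X and Y wherever 1 bp or more was shared. Of 8267 regions with a peak in exactly 2 libraries, 96 also carried an IgG peak, and 66.4% of the other 8171 met the distance rule. Of the 5422 regions, 5384 consisted of 1 peak from each of their 2 libraries and 38 of more than 2 peaks, and together they covered 2.71 Mb. The regions were chosen by the peak calls of the 6 libraries, so their number, pairs, folds, q values and widths are descriptions with no test.

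The cells came from the human embryonic stem cell line H1, labelled wild type, at day 30. The study's design text calls them cortical interneurons made from the stem cells, while the cell type label of every sample names embryonic stem cells, and peak lists hold no expression values with which to check either. The same H1 cells were profiled with an antibody to MYT1L (4 libraries) and with IgG as negative control (2 libraries), and nothing in the labels says that the libraries came from separate differentiations, so the spread between them may be technical. Within each MYT1L list the peaks are named for a sample number 1 above that of its title, and replicates are numbered here by title.

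MYT1L is a zinc finger transcription factor of neurons. It is known for holding down non-neuronal gene programmes and Notch signalling while cells become and stay neurons, and its zinc fingers recognise the short core AAGTT. In CUT&RUN an antibody tethers a nuclease to the protein's sites on chromatin, and the DNA cut free around them is sequenced. A region away from the outer ends of genes can still lie on a promoter, since many long neuronal genes have internal starts from which shorter or alternative transcripts are made.

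Some of the regions lay over annotated transcription starts that are not gene ends, and these give the set its most readable sequences. The 250 bases upstream of 6 such starts are printed 5′ to 3′ on the strand of the gene, from RefSeq, GRCh38.p14. MAP2, SGK1, SNX12 and CCDC77 head the coding starts at which both libraries had a summit inside the start window, by fold. ROBO2 and PVALB were added from the axon guidance and interneuron lists. Capitals mark the core AAGTT on either strand, and lower case is all other sequence. The positions are chr2:209579357-209579606 (plus strand), chr6:134174867-134175116 (minus strand), chrX:71068335-71068584 (minus strand), chr12:401394-401643 (plus strand), chr3:77039849-77040098 (plus strand) and chr22:36817036-36817285 (minus strand).
MAP2: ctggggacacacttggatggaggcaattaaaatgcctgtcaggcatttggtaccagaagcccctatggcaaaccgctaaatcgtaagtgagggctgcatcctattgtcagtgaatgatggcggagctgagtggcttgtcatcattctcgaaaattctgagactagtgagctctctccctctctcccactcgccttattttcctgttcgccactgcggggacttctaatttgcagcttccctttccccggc
SGK1: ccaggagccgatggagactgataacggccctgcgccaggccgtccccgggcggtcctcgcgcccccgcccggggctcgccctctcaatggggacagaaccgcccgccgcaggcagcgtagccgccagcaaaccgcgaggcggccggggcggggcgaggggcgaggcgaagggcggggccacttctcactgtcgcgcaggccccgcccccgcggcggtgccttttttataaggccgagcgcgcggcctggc
SNX12: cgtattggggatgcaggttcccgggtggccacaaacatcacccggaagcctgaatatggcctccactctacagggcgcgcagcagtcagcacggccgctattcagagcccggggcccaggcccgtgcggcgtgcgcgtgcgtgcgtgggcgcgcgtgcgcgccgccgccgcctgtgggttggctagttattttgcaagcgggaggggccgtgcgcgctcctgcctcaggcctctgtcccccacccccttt
CCDC77: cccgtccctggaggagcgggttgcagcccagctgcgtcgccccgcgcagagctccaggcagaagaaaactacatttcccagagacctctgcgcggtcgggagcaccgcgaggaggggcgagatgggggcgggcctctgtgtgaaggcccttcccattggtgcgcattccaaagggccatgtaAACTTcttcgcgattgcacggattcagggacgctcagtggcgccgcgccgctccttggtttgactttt
ROBO2: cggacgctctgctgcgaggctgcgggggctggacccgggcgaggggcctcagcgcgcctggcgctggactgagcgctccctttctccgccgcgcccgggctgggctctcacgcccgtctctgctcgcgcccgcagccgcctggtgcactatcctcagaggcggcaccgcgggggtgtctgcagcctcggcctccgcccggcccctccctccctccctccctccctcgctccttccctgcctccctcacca
PVALB: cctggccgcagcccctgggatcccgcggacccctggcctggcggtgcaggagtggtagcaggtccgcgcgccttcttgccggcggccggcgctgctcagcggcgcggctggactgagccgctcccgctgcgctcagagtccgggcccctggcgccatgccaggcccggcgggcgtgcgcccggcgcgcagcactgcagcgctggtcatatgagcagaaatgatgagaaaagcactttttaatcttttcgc
Only CCDC77 of these 6 holds the core, once, read on the opposite strand. The other 5 hold no AAGTT or AACTT in these 250 bases. CpG dinucleotides numbered 35 at SGK1, 28 at PVALB, 27 at SNX12 and ROBO2, 22 at CCDC77 and 8 at MAP2.

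Peaks over these starts were called in 2 libraries each, with no peak called in the other 2. MAP2, which encodes a microtubule-associated protein of neuronal dendrites, had a fold over background of 6.87 in replicate 1 and 10.4 in replicate 4, from 14 and 24 fragments. ROBO2, a receptor for the Slit guidance cues, had 7.06 in replicate 1 and 6.92 in replicate 4. Its region lay inside the gene, 609.8 kb from the nearest end of a coding gene. PVALB, the calcium buffer parvalbumin that marks a class of interneurons, had 4.19 in replicate 3 and 4.47 in replicate 4, from 11 and 13 fragments. The values of the 2 libraries were close at ROBO2 and PVALB and apart at MAP2. SGK1, a stress- and hormone-induced kinase, had 6.18 and 10.6 in replicates 1 and 4, SNX12, a sorting nexin, 5.04 and 11.7, and CCDC77 9.33 and 7.35. The fold and the fragment number here and below are per peak: the fold is the authors' own value, and the fragment number was worked back from it.

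Of 1562 annotated miRNA hairpins, 5 lay under one of the regions: MIR6859-1, MIR3147, MIR34B, MIR4734 and MIR6089. Their 7 mature miRNAs had 7 different seeds, so no seed family was shared. MIR34B is shown because its family is a known target of p53. Capitals mark the seed, bases 2 to 8.
hsa-miR-34b-5p: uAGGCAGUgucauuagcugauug
hsa-miR-34b-3p: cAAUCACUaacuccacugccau
The region over MIR34B, chr11:111512495-111513081, had a fold of 4.93 in replicate 2 and 4.23 in replicate 3. It also covered part of a start window of BTG4, the gene that runs the other way. With 5 hairpins in all, no statement on miRNA genes as a group is made.

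The 6 possible pairs of libraries were very unequally filled. Replicates 1 and 4 shared 2351 of the regions (43.4%), replicates 3 and 4 shared 1009 (18.6%) and replicates 1 and 3 shared 933 (17.2%). Pairs with replicate 2 held 503 (with replicate 1), 434 (with replicate 4) and 192 (with replicate 3). Replicate 2 also had the fewest peaks, 12310 against 18966 to 30086, and the lowest local background, 0.421 fragments at the 1st percentile against 0.895 to 1.18 in the other MYT1L libraries. The IgG lists held 976 and 998 peaks in all, at a background of 0.329 and 0.190. With lists this short, the lack of an IgG peak says little on whether a region is specific to MYT1L. The part of depth in the unequal pairs was not tested. Within a region the 2 summits lay a median of 106 bp apart, and 47.8% lay within 100 bp. Across regions of a pair, Spearman's rho between the folds of the 2 libraries ran from 0.208 (replicates 2 and 3, n = 192) to 0.454 (replicates 1 and 3, n = 933). These are descriptions over regions that share 2 libraries and a common calling threshold.

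**Figure D1:**
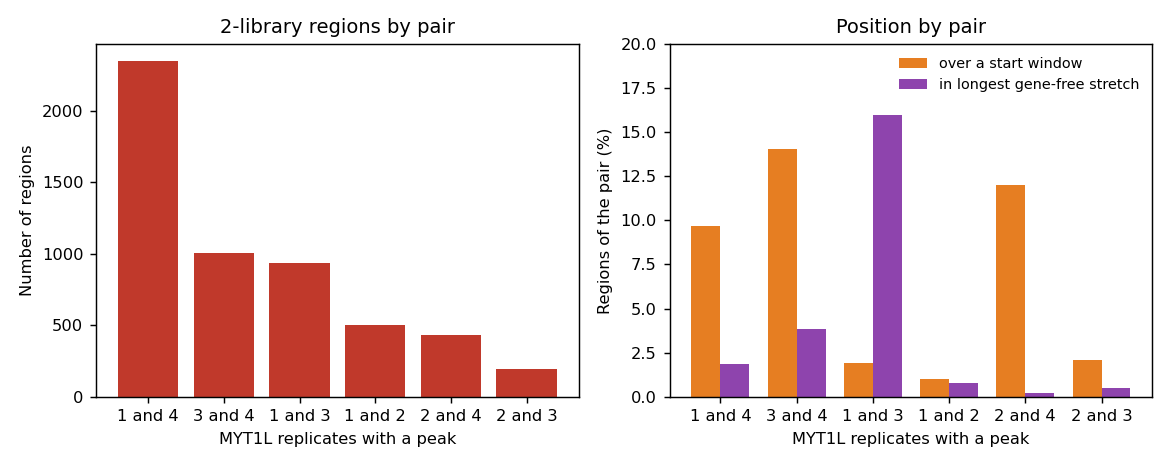
Number of 2-library regions for each pair of MYT1L replicates (left) and the percent of each pair's regions over an annotated start window or in a chromosome's longest gene-free stretch (right). Replicates 1 and 4 hold 2351 regions; start windows are most frequent in the 3 pairs with replicate 4, and the gene-free stretches in replicates 1 and 3.

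What the regions lay on differed by pair. A start window, here 250 bases before to 50 after an annotated start, was overlapped by 14.1% of regions of replicates 3 and 4, 11.98% of replicates 2 and 4, and 9.70% of replicates 1 and 4. In the 3 pairs without replicate 4 it was 0.994% to 2.08%. On each chromosome the longest stretch without a gene of any kind in the table was marked; such stretches are typical of centromeres and of the short arms of acrocentric chromosomes. They held 15.97% of the regions of replicates 1 and 3, against 3.87% of replicates 3 and 4 and 1.87% of replicates 1 and 4. Thus replicate 4 went with starts and the pair of replicates 1 and 3 with gene-free stretches. The pairs share libraries, and no test was run between them.

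The peaks were weak to moderate. In replicates 1 to 4 the median fold was 4.81, 5.25, 4.88 and 5.16, and the median −log10 q was 4.83, 4.05, 4.45 and 5.23. The median peak rested on 13, 8, 11 and 11 fragments, over a local background of 1.63, 0.636, 1.38 and 1.29. In each library these medians of the fold lay between those of regions in 1 library (4.47, 4.93, 4.65 and 4.65) and of regions in 3 or 4 libraries (5.48, 5.63, 5.32 and 5.86), all away from gene ends. The median region was 454 bp wide, against 255 bp in 1 library and 679 bp in 3 or 4. Sharing between libraries depends on strength, so this order follows in part from the rule and has no test. At the distance rule, the 310 regions over 1000 and up to 2000 bp from a gene end had a median fold of 4.65, and the 310 two-library regions over 500 and up to 1000 bp, just outside the rule, had 4.78.

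**Figure D2:**
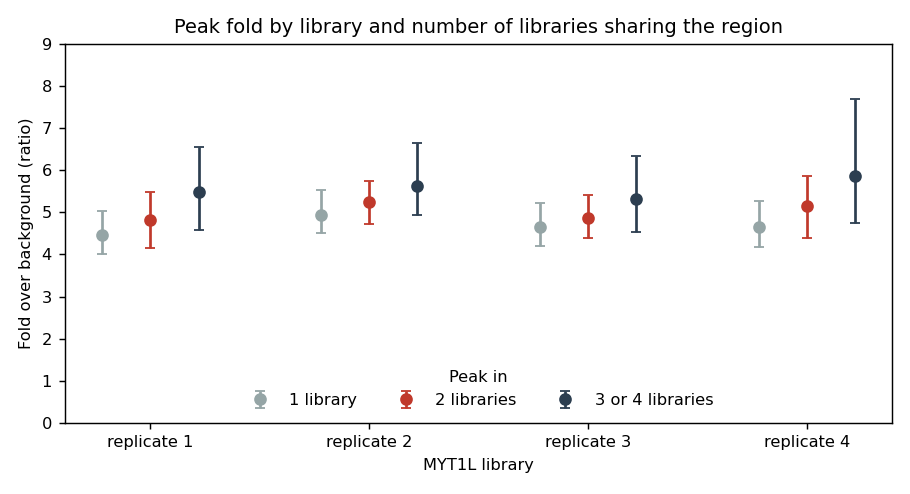
Median fold over background of the peaks in each MYT1L library (points) with the 1st and 3rd quartile (bars), for regions away from gene ends with a peak in 1, in 2, or in 3 or 4 libraries. In every library the 2-library regions lie between the other classes, with medians of 4.81 to 5.25 and broadly overlapping quartiles.

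The regions lay at distances from gene ends much like those of other regions away from gene ends. The nearest end of a protein-coding gene was a median of 35.8 kb away (quartiles 10.3 and 129 kb), and 1570 regions (29.0%) were over 100 kb from any. Bodies of protein-coding genes held 2339 (43.1%), 707 lay in a long noncoding RNA gene only, and 2071 (38.2%) lay in none of the coding, long noncoding or pseudogenes of the table. For regions in 1 library the median distance was 34.4 kb, with 28.4% over 100 kb, 46.4% in coding genes and 37.7% in none. For regions in 3 or 4 libraries these values were 32.6 kb, 27.4%, 46.2% and 35.8%. The table gives no exons, so exon and intron were not told apart.

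Positions were compared with other regions away from gene ends within each library, by exact permutation (sign flips over the 4 MYT1L libraries, two-sided). The smallest p this allows is 0.125, which becomes 0.175 after adjustment over 7 comparisons, so none can pass 0.05. Regions shared by 2 libraries enter both, so the libraries are not fully independent. A peak summit fell in a start window in 3.10%, 2.38%, 4.02% and 4.44% of the peaks of replicates 1 to 4. The mean, 3.49% ± 0.924 (SD, n = 4), was lower than the 8.47% ± 1.34 of regions in 3 or 4 libraries, in 4 of 4 libraries (exact permutation p = 0.125, adjusted 0.175). It was higher than the 1.32% ± 0.779 of regions in 1 library, also in 4 of 4 (exact permutation p = 0.125, adjusted 0.175). The ranges of the per-library values did not overlap with regions in 3 or 4 libraries. They did overlap with regions in 1 library, of which replicate 4 had 2.46%. The difference of 2.17 percentage points from regions in 1 library was 4.72 without MYT1L replicate 1. Here and below, leaving out a MYT1L replicate redraws the classes, since regions in 3 libraries can then become 2-library regions.

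Of the regions inside their nearest coding gene with a known strand (1658 in all), 52.5% ± 4.14 (SD, n = 4 libraries) lay closer to its 5′ end than to its 3′ end, against 60.6% ± 0.239 of regions in 3 or 4 libraries, lower in 4 of 4 (exact permutation p = 0.125, adjusted 0.175). The difference of -8.12 percentage points was -3.48 without MYT1L replicate 1, -4.58 without replicate 2 and -3.34 with lists of the same size. A region in 3 or 4 libraries lay within 10 kb of 13.9% ± 2.07 of the 2-library regions and 10.02% ± 0.992 of those in 1 library, higher in 4 of 4 (exact permutation p = 0.125, adjusted 0.175). For this distance, the regions in 3 or 4 libraries included those at gene ends or with an IgG peak. Coding genes held 43.5% ± 2.61 against 46.5% ± 0.943, lower in 4 of 4 (exact permutation p = 0.125, adjusted 0.175). That last direction turned round, to a difference of 3.34 percentage points, when only peaks with a −log10 q of at least 5 were used, to 0.448 with lists of the same size and to 2.14 with IgG regions kept, and it was -1.25 without IgG replicate 1. The share over 100 kb from a gene end, 29.0% ± 4.03 against 26.7% ± 2.50, was higher in 3 of 4 libraries (exact permutation p = 0.25, adjusted 0.25) and changed sign without MYT1L replicate 2 (a difference of -0.234 percentage points) and without IgG replicate 1 (-0.196). It also changed sign with the stricter q (-4.31), lists of the same size (-0.608) and IgG regions kept (-4.04).

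**Figure D3:**
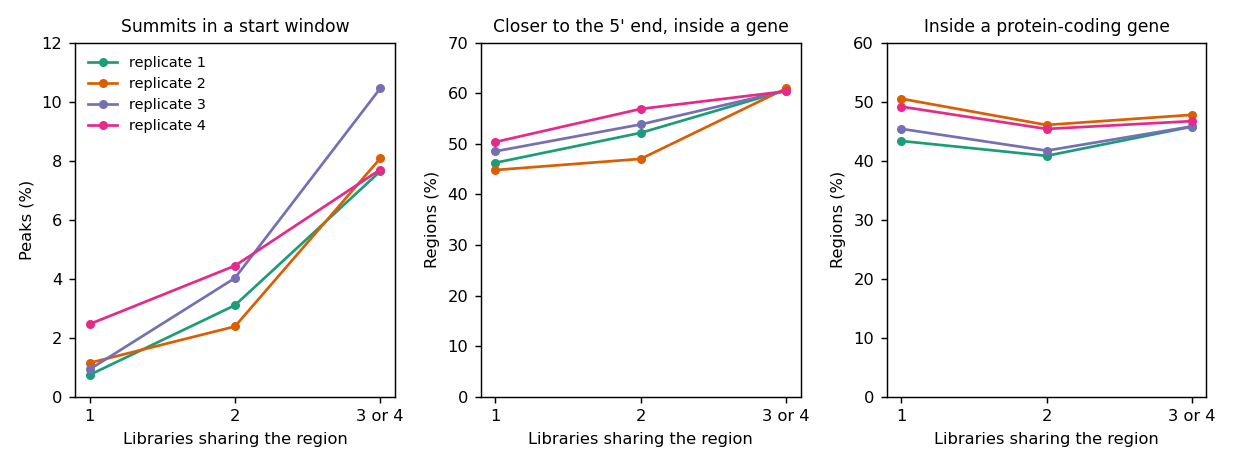
Per-library percent of peak summits in a start window (left), of regions inside their nearest coding gene that lie closer to its 5′ end (middle) and of regions inside a protein-coding gene (right), for regions away from gene ends shared by 1, 2, or 3 or 4 libraries; each line is 1 MYT1L replicate. The first measure rises in all 4 replicates, from a mean of 1.32% through 3.49% to 8.47%.

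Some of the regions lay over annotated starts, mostly internal starts of coding genes. Of 35116 start windows, 537 (1.53%) were overlapped. In regions, 449 (8.28%) overlapped a start window: 296 a coding start of 291 genes, 179 a long noncoding start of 184 genes, and 26 both. The same held for 786 of the 4366 regions in 3 or 4 libraries (18%) and for 2.78% of the regions in 1 library. A wider region meets a window more easily. Median widths were 255 bp in 1 library, 454 bp in 2 and 679 bp in 3 or 4, and the part of width was not tested. At 67 coding windows both libraries had their summit inside. The 449 regions were wider (median 554 bp) than the 4735 that lay neither on a start nor in a longest gene-free stretch (454 bp), and 94.0% of them had replicate 4 among their 2 libraries, against 69.4%.

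The starts under the regions were rich in CpG. Among coding windows over 1000 bp inside a gene, 339 lay under a 2-library region, with a median GC content of 66.7% and 26 CpG per 300 bases. All 5307 such windows had 57.7% and 10, and the 751 under regions in 3 or 4 libraries had 69.7% and 30. The core AAGTT, on either strand, was found in 24.2% of the 339 windows, in 35.1% of all 5307 and in 18.4% of the 751. Its longer form AAAGTTT, each match of which also contains AAGTT, was in 2.65% of the 339 and 4.20% of all 5307. Among start windows of every kind, 34.0% held AAGTT. The core thus was less frequent in windows of higher GC content; the part of base composition was not tested, and no match says only that these letters are not in this window.

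Starts of neuronal genes under the regions were read from lists of genes. The regions at SATB1, GAD1, CACNA1C, NODAL and ESRRB overlapped a window with neither summit inside it, and those at OPCML, SEMA6D and GRIN2B had 1 summit inside. The starts included SATB1, a chromatin organiser of interneurons (fold 6.16 in replicate 1 and 6.34 in replicate 4), and GAD1, which makes GABA (4.02 in replicate 3 and 3.66 in replicate 4). OPCML, a synaptic adhesion gene, had 5.47 in replicate 3 and 5.72 in replicate 4, in a region 528.6 kb from the nearest end of a coding gene. SEMA6D, a semaphorin of axon guidance, had 2 such regions, with folds of 7.002 and 7.324 and of 5.56 and 7.58 in replicates 3 and 4. GRIN2B, an NMDA receptor subunit, had 5.36 in replicate 1 and 7.21 in replicate 4, and CACNA1C, a calcium channel, 4.41 and 6.23. At the other end, the pluripotency genes NODAL (4.40 in replicate 2, 5.71 in replicate 4) and ESRRB (4.03 in replicate 1, 4.91 in replicate 4) also had a covered start. In all, 13 of the 237 list genes with a coding start window (5.49%) had one covered, beside 291 of 15842 coding genes (1.84%). Of the 340 covered coding windows, 339 lay over 1000 bp inside a gene, and only 3418 coding genes have such a window. How many list genes have one was not counted. The 2 shares do not allow for this, and no test of their difference was run.

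Other covered starts were of genes not on these lists and were chosen after their values were seen. Both summits lay inside the window at RBFOX1, JPX and the second TCF4 region, 1 at APC and CHASERR, and neither at the first TCF4 region. TCF4, a basic helix-loop-helix factor, had 2: 4.12 and 7.60, and 6.55 and 4.93, in replicates 1 and 4. RBFOX1, a neuronal splicing factor, had 4.72 in replicate 1 and 3.70 in replicate 4, 779.7 kb from the nearest end of a coding gene. APC, a regulator of Wnt signalling, had 6.33 in replicate 2 and 11.5 in replicate 4. Noncoding starts included CHASERR, the RNA gene next to CHD2, at 7.50 in replicate 1 and 10.2 in replicate 4, and JPX, an RNA gene of the X inactivation centre, at 4.93 in replicate 2 and 5.81 in replicate 4. Replicate 4 was in every pair named in this paragraph, and it was the higher of the 2 at all except RBFOX1 and the second TCF4 region.

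The strongest regions were of a different make-up. The highest mean fold was 21.0 ± 2.28 (SD of 2 libraries) at chr18:79200704-79200908 inside ATP9B, a phospholipid-transporting ATPase, from 19.4 in replicate 2 and 22.6 in replicate 4. Next came chr10:40810921-40811149, in the longest gene-free stretch of its chromosome, with 16.7 in replicate 1 and 19.5 in replicate 3. A region 2.02 kb from PRPF31, a splicing factor, at chr19:54133731-54133984, had 20.8 in replicate 1 and 13.6 in replicate 4. These peaks rested on 40 to 198 fragments, well above the medians of 8 to 13.

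CNTNAP2, a neurexin-family adhesion gene, held the region whose 2 libraries were closest in fold among the 10 strongest. At chr7:148331535-148331805 the fold was 15.2 in both replicates 1 and 4, from 68 and 48 fragments, and a region in 3 or 4 libraries lay 7.59 kb away. Another 5 of the 10, at NXN, CFAP97D2, near KHDRBS2 and in gene-free stretches of chromosomes 12 and 17, had means of 13.1 to 15.0.

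Of the 10, 3 lay in a longest gene-free stretch, 5 in a gene and none over a start window. Among the 100 strongest, 32% lay in a longest gene-free stretch and 21% over a start window, against 4.39% and 8.28% of all 5422. Both kinds were therefore more frequent among strong regions, and strength was the rank used here, so this is a description. Median mean fold was 5.76 in the gene-free stretches, 5.42 over starts and 4.97 elsewhere.

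**Figure D4:**
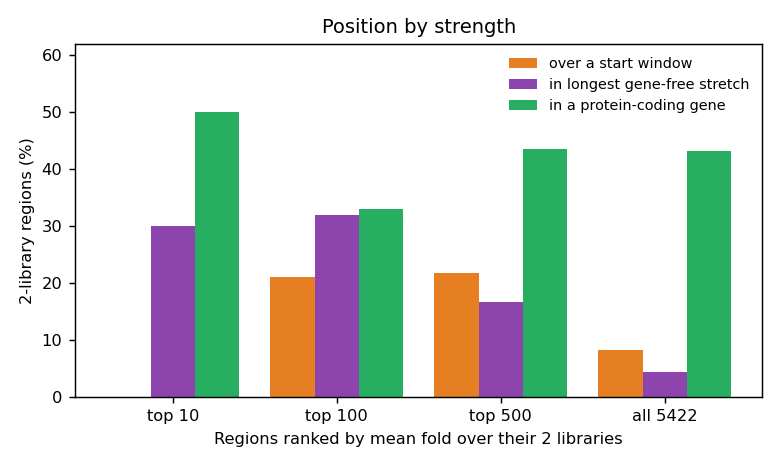
Percent of the 2-library regions over a start window, in a chromosome's longest gene-free stretch, or inside a protein-coding gene, among the 10, 100 and 500 with the highest mean fold and among all 5422. The gene-free share falls from 32% in the top 100 to 4.39% among all, and no region of the top 10 lies over a start window.

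The longest gene-free stretches held 238 of the regions, narrow ones with a median width of 276.5 bp. Chromosome 1 had 75, chromosome 13 had 46, chromosome 20 had 17, chromosome 10 had 16 and chromosome 17 had 13. Replicate 1 was among the libraries of 82.8% of them, replicate 3 of 79.4%, replicate 4 of 35.3% and replicate 2 of 2.52%. Reads from such stretches can often be placed at several sites, and how the authors treated them is not given in the sources used here. The difference from regions in 3 or 4 libraries, 4.20% ± 3.66 against 5.99% ± 2.26 (SD, n = 4), was lower in 3 of 4 libraries (exact permutation p = 0.25, adjusted 0.25). It changed sign, to 1.92, 1.39 and 3.38 percentage points, without MYT1L replicates 1, 3 and 4.

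By gene, 1946 of 20037 protein-coding genes (9.71%) had at least 1 of the regions in the body, 381 had at least 2 and 31 at least 4. A region in several overlapping genes counts for each of them, as with the protocadherin gamma genes below. Genes over 100 kb made up 996 of the 1946, and 29.7% of such genes had one, yet per length they held 1.69 regions per Mb of gene body against 1.92 for all coding genes. Densities per Mb of gene body, here and below, use such counts: the 2339 regions in coding genes gave 2493 over all coding genes. PTPRN2, a phosphatase-like protein of dense-core vesicles, had 14 in 1049 kb, with mean folds of 3.81 to 7.48. It also held, away from gene ends, 7 regions in 3 or 4 libraries and 65 in 1 library. The count of 14 was 8 without MYT1L replicate 1, 9 without replicate 3 and 3 with only peaks of −log10 q of at least 5. DPP6, an auxiliary subunit of A-type potassium channels, had 7 with mean folds of 5.05 to 6.19, and the count was 3 without replicate 1 and 1 without replicate 4. TTC34 had 9 and another 13 in 3 or 4 libraries, with low mean folds of 2.19 to 3.99.

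The protocadherin gamma genes, which give individual neurons a cell-surface identity and each begin with a large variable exon of their own, held 7 of the regions within one locus. The 22 genes of the table start one after another and share their last exons, so a region counts for several of them, and reads of their similar copies could be placed on the wrong one. Mean folds were 4.20 to 5.99, and 5 of the 7 were in replicates 1 and 4. Of the 7 regions, 6 began 1644 to 1936 bp after the start of their nearest gene: PCDHGA5 1877, PCDHGA6 1748, PCDHGA7 1869, PCDHGA8 1936, PCDHGA10 1728 and PCDHGA12 1644. Of 4 regions in 3 or 4 libraries, 3 began 1773 bp after PCDHGA1, 1883 after PCDHGA2 and 1889 after PCDHGA3. Offsets were taken from the gene with the nearest end. The other region of the 7 had -2901 bp, before the start of PCDHGA12, and the other of the 4 had -1836 bp from PCDHGA11. Both lay after the start of an earlier gamma gene. From the start of PCDHGA1 the first began at 97.092 kb, with PCDHGA11 starting at 90.537 kb. The second began at 88.701 kb, with PCDHGB7 starting at 87.163 kb. Regions in 1 library began 1864 bp after PCDHGB1, 2134 after PCDHGA4, 1637 after PCDHGB3 and 1850 after PCDHGB4. They also began 1604 bp after PCDHGB5, 1650 after PCDHGB6, 1807 after PCDHGA11, 2968 after PCDHGC5 and 11190 after PCDHGA12. Such offsets were thus not particular to regions in 2 or more libraries. The 9 regions in 2 or more libraries after the start of their nearest gene were picked out with their offsets known. Their narrow range is thus a description. The count for PCDHGA1 was 1 with a gene-end distance of 2000 bp, and 2 and 3 without MYT1L replicates 1 and 4.

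**Figure D5:**
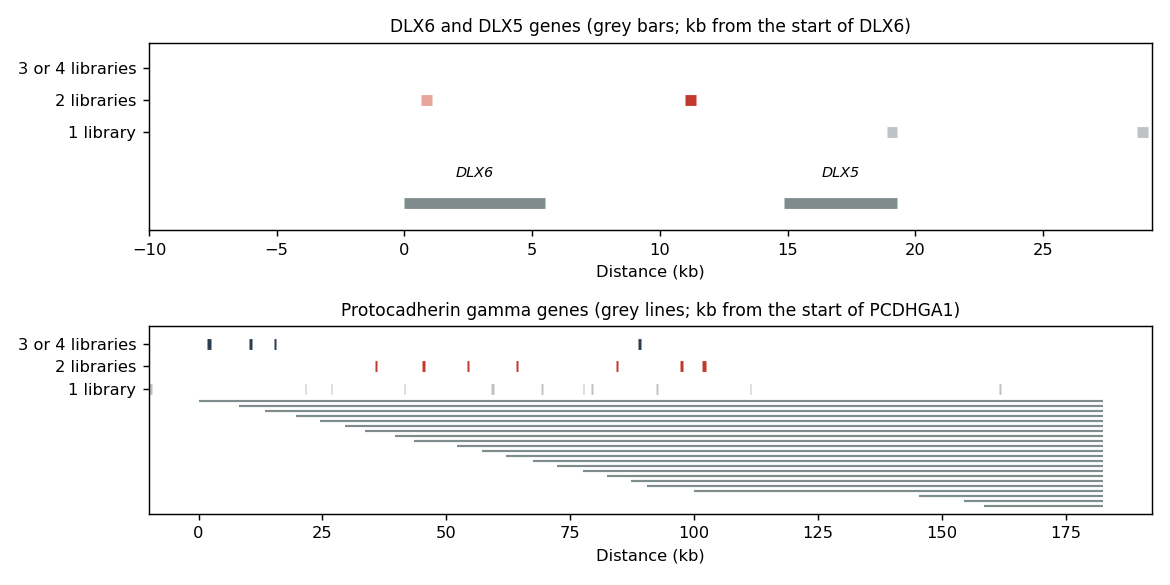
Regions around DLX6 and DLX5 (top) and over the protocadherin gamma genes (bottom), by the number of MYT1L libraries with a peak, against distance in kb from the start of DLX6 or PCDHGA1. Red marks are 2-library regions away from gene ends, pale red a 2-library region at a gene end; 1 red mark lies between the DLX genes and 7 lie across the gamma genes.

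Genes of the interneuron lineage were examined next. Of 36 ventral forebrain and interneuron genes, 10 (27.8%) held at least 1 of the regions, beside 9.71% of all coding genes. They held 13 in all, or 3.27 per Mb of gene body, beside 1.92 per Mb over all coding genes. Among them were ERBB4, GAD1, LHX8, NR2F2, NXPH1, PVALB, SATB1, SOX6 and SP9. ERBB4, the neuregulin receptor of migrating interneurons, had 2 regions, each with folds of 5.49 in replicate 1 and 5.28 in replicate 4, 127.7 and 148.8 kb from the gene's end. SOX6, needed by medial ganglionic eminence interneurons, had 4.58 in replicate 1 and 4.93 in replicate 4. The mean folds of these 3 regions, 4.75 to 5.39, lay on either side of the median of 5.02 over all regions.

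SP9, a zinc finger factor of the ganglionic eminences, had 2 regions 1.06 and 1.29 kb from a gene end, with folds of 3.86 and 3.94 in replicates 1 and 4 and of 3.73 and 4.44 in replicates 1 and 3. Between DLX6 and DLX5, which encode homeobox factors that drive the GABAergic fate, a region at chr7:97016518-97016977 had 5.62 in replicate 1 and 4.68 in replicate 4, from 18 and 16 fragments. It lay 3.42 kb from DLX5. The bodies of DLX1, DLX2, LHX6, GAD2, SST, MAF, ZEB2 and NKX2-1 held none, and the nearest to NKX2-1 was 11.95 kb away.

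Of the Notch pathway genes, 6 of 32 (18.8%, 2.57 regions per Mb) were covered, beside 9.71% and 1.92 per Mb over all coding genes. NOTCH1, the receptor, had 4.76 in replicate 1 and 3.30 in replicate 4. HEY1, a transcriptional effector of Notch, had 5.02 in replicate 3 and 4.33 in replicate 4, 1.25 kb from a gene end and 1.76 kb from a region in 3 or 4 libraries. LFNG, which modifies Notch receptors, had 4.72 in replicate 3 and 3.30 in replicate 4, and MAML3, a coactivator, 3.90 in replicate 2 and 5.05 in replicate 4. NOTCH2, another receptor, had 1. The bodies of HES1 and HES5 held none, and the nearest lay 158.3 and 133.3 kb away.

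In the MYT1 family, MYT1 had 1 region, with 4.13 in replicate 1 and 4.67 in replicate 4. MYT1L itself held none, with 1 region in 3 or 4 libraries and 9 in 1 library in its body and the nearest 2-library region 93.2 kb away. ST18 held none. Expression was not measured.

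Lists of genes that act later in neurons were read beside 9.71% of all coding genes covered, 29.7% of coding genes over 100 kb, and 1.92 regions per Mb over all. Synaptic adhesion genes had 18 of 48 covered (median length 467 kb, 0.926 regions per Mb), axon guidance genes 13 of 42 (1.32 per Mb), GABA and glutamate receptors 9 of 37 (0.736 per Mb) and voltage-gated channels 10 of 35 (1.93 per Mb). TENM3, a teneurin, had 3, the strongest with 5.52 in replicate 3 and 8.08 in replicate 4. EPHA7, an ephrin receptor, had 2, the strongest with 7.32 in replicate 1 and 4.75 in replicate 4. The shares of axon guidance genes (31.0%), channels (28.6%) and receptors (24.3%) lay near that of long genes, and that of synaptic adhesion genes was 37.5%. The density was below that of all coding genes in 3 of the 4 lists and close to it for the channels.

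Lists of other lineages were counted in the same way, beside the same 9.71% and 1.92 per Mb over all coding genes. Dorsal excitatory neuron genes had 5 of 25 covered (2.27 per Mb), among them BCL11B with 2 and NEUROD2 with 1. Pluripotency genes had 5 of 23 (9.22 per Mb over 0.651 Mb of gene body): DNMT3L, ESRRB, LIN28B, NODAL and SALL4. Of 36 liver and muscle genes only TF, transferrin, had one (0.893 per Mb). These lists hold few regions, from 1 to 6, so their densities are coarse, and no test of a list was run.

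Over chromosomes, density was 1.76 regions per Mb of the span between the outermost genes. It was highest on chromosomes 19 (3.35), 20 (2.94), 21 (2.51) and 17 (2.49), and lowest on Y (0.700) and X (0.782). Over the 22 autosomes Spearman's rho was 0.460 with the density of protein-coding genes and 0.828 with the density of regions in 3 or 4 libraries, as a description of chromosomes that share the 4 libraries. Within 10 kb of another of the regions lay 562 (10.4%), and within 10 kb of a region in 3 or 4 libraries 786 (14.5%).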

How the data were processed

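CUT&RUN for MYT1L (4 libraries) and IgG (2 libraries) was analysed from 1 deposited narrowPeak list per library. Peaks were called by the authors with MACS2 against hg38, per the submitters' processing notes; aligner, control and threshold are not given in the sources used here. For each peak the authors deposited a fold, which is a ratio to background, −log10 values of p and q, and a score. The deposited score was 10 times the −log10 q in at least 99.99% of peaks. The lowest −log10 q was just above 2. Read depth is unknown. With the formulas of MACS2, whole-number fragment pileups were recovered for 99.97% to 100% of peaks with a −log10 p up to 200 (tolerance 0.0002). Folds served for description and ranking.

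Peaks sharing at least 1 bp were merged (pandas 2.3.3, checked with bedtools 2.31.1). Gene bodies and start windows (250 bases before to 50 after a start) came from RefSeq, GRCh38.p14. A region in 3 or 4 libraries is called reproducible. Distances to such regions include those at gene ends or with an IgG peak. Within-library shares were compared by exact sign flips over 4 libraries (scipy 1.17.1) with Benjamini-Hochberg adjustment, and region merging was tested on simulated data. Named regions are the 10 with the highest mean fold, 1 per 100 kb; named genes are the 10 with the most regions in the body, the 10 with most per Mb among those with at least 4, and a fixed set of MYT1 family, Notch and interneuron genes. The members and lists were chosen with earlier results of these data known, and the start-window, 5′-end and gene-free comparisons were added after the data were seen. Some results for single genes are not reported here. Groups and replicate numbers come from the titles.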

Additional observations from a re-analysis of the deposited data

How the results depend on the processing

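No paired analysis was possible because no result tests MYT1L against IgG, the groups that share replicate numbers. The 7 comparisons of the report were paired within library. Under 13 alternatives the start-window, 5′-end and 10 kb differences kept their direction but not all their size. The 5′-end difference of -8.12 percentage points was -8.90 to -3.34, and the start-window difference of 2.17 from regions in 1 library was 2.11 to 4.72 (4.72 without MYT1L replicate 1). The number of regions fell to 2574 when peaks below a −log10 q of 5 were dropped and to 2199 when lists were reduced to the same size by rank. It was 4188 to 5464 leaving out each replicate. Without a MYT1L replicate the classes are redrawn over the remaining libraries, and regions in 3 libraries can become 2-library regions. The values without a MYT1L replicate thus describe partly different sets of regions. The share inside a coding gene was 42.8% to 45.9% leaving out each replicate. The in-gene difference from regions in 3 or 4 libraries reversed to 3.34 percentage points (−log10 q of at least 5), 0.448 (lists of the same size) and 2.14 (IgG regions kept), and was -3.92 to -1.25 leaving out each replicate. The difference over 100 kb from gene ends reversed to -4.31, -0.608 and -4.04 under the same 3 settings, and was -0.234 to 5.09 leaving out each replicate (-0.234 without MYT1L replicate 2, -0.196 without IgG replicate 1). That in gene-free stretches was -4.14 to 3.38 leaving out each replicate (1.92, 1.39 and 3.38 without MYT1L replicates 1, 3 and 4). The share of genes with a region was 5.39% and 4.597% under the 2 stricter peak settings, 10.9% and 8.72% with gene-end distances of 500 and 2000 bp, and 7.86% to 9.85% leaving out each replicate. The causes were not tested. Of the 10 strongest regions, 10 remained under every setting that kept all MYT1L libraries, and 1, 8, 6 and 5 without MYT1L replicates 1 to 4, since a region then loses a library. Exact tests over 4 libraries cannot pass 0.05, a planned comparison of sequence at summits was not run for want of a genome sequence, and peaks under the calling threshold in the other 2 libraries cannot be told from absence.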
